A study of Mus musculus with 7 samples.

Results

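Cytosolic ribosomal protein genes were measured in macrophages sorted from the inflamed mouse colon, 67 genes of the 22180 tested, of which 42 are named for the large ribosomal subunit and 25 for the small one. RefSeq annotates 2 of them, Rpl6l and Rps4l, as pseudogenes. They were taken by their symbols (Rpl or Rps with a number, with the stalk genes Rplp0, Rplp1 and Rplp2, and Rpsa), from probe sets annotated with exactly 1 symbol, leaving out S6 kinase genes and names marked as pseudogenes. For each gene the probe set of highest mean signal over all 7 arrays was kept. RNA came from Rictorfl/fl LysM+/cre mice (4 arrays) and Rictorfl/fl LysM+/+ mice (3 arrays), with 1 Affymetrix Mouse Gene 2.0 ST array for each sorted sample. All mice carried the floxed Rictor alleles, and all had received 5% dextran sulphate sodium for 5 days and plain water for 3 more days, which causes colitis. The sort took Ly6C- cells positive for MHC class II, CD64, CD11b and CD45. LysM (Lyz2) drives cre in neutrophils and monocytes as well as in macrophages, and not in the colon alone. How completely Rictor was deleted in the sorted cells is not known here, and no group carried cre without floxed Rictor. Nothing in the labels says whether a sample came from 1 mouse or from pooled mice, so p-values measure the spread between these samples.

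Ribosomes translate all cytosolic mRNA, and their proteins are made in matched amounts because unpaired ones are degraded. Many ribosomal protein mRNAs start with a C followed by a run of pyrimidines, the 5' terminal oligopyrimidine (TOP) tract, through which mTORC1 and the binding protein LARP1 control their translation. Rictor encodes a subunit of mTORC2, a kinase complex that is known to bind ribosomes and to be activated by that binding. Arrays measure mRNA, so a change in the translation of TOP mRNAs would not appear in these values.

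RefSeq promoter sequences (GRCm38.p6) were found for 52 of the 67 genes. Those shown belong to the 3 genes of each subunit with the smallest unadjusted p that have an entry. This choice was by rank alone, and no ribosomal protein gene passed the adjusted test between genotypes. Each sequence runs from 40 bases before the annotated start to 20 bases from it, 5' to 3' on the strand of the gene. Capitals mark a TOP-like tract (a C with at least 4 pyrimidines after it) whose first marked C lies within 5 bases of the start. Bases before that C were not checked, so the run of pyrimidines can begin further upstream, as in the second Rpl34 window. For Rpl34 and for Rps27l 2 starts are annotated.
Rpl34, chr3:130730379-130730438, minus strand: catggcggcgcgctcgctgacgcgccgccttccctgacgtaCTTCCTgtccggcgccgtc
Rpl34, chr3:130730318-130730377, minus strand: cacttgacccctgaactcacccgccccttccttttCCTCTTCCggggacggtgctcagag
Rplp0, chr5:115559427-115559486, plus strand: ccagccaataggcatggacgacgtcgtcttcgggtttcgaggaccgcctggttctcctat
Rpl22l1, chr3:28805468-28805527, plus strand: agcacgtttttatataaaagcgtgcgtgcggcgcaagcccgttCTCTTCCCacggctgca
Rps23, chr13:90923082-90923141, plus strand: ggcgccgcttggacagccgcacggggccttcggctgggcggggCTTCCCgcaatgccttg
Rps27l, chr9:66946046-66946105, plus strand: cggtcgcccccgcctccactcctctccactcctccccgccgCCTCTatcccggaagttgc
Rps27l, chr9:66946373-66946432, plus strand: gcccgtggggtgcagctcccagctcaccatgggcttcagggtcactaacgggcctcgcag
Rps9, chr7:3704001-3704060, plus strand: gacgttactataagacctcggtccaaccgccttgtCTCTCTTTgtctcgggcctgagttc

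A TOP-like tract exactly at the annotated start stood in 11 of 61 ribosomal protein windows (18.03%), against 2.51% of all 32851 promoter windows. Within 5 bases of the start the shares were 39.3% and 18.3%, and these include runs of pyrimidines that begin further upstream. The motif CTTCCGG, the core of ETS family sites, was found on either strand in 37.7% of the ribosomal protein windows of 250 bases before and 50 from the start, against 8.86% of all windows. The TATA box TATAAA stood in 9.84% against 13.6%, also on either strand. CTTCCGG opens with letters that also fit the TOP-like tract, so the same bases can count for both, and a match is a description of the letters alone. The median log2 difference between genotypes was 0.07 for the 11 genes with a tract at the start and 0.12 for the 41 without, and 0.12 for the 23 genes with CTTCCGG and 0.10 for the 29 without.

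The arrays carried the signal of macrophages. All 12 measured macrophage and gate markers lay above at least 94.7% of genes, among them Csf1r, Adgre1 and the MHC class II genes. Of these 12 genes 5 were higher and 7 lower with cre, with a median log2 difference of -0.03. The MHC class II genes H2-Aa, H2-Ab1 and H2-Eb1 differed by -0.06, -0.04 and -0.06. Some gate genes were not level between genotypes. At unadjusted limma p-values under 0.05, Fcgr1 (CD64) differed by 0.97 (SE 0.26) and Itgam (CD11b) by 0.53 (SE 0.19), both overlapping. The macrophage gene Cd68 differed at that threshold by -0.20 (SE 0.08) without overlap. The mean deviation of the 12 genes was 0.15, 0.11, -0.32 and 0.23 on the LysM+/cre arrays, against -0.12, 0.08 and -0.13 on the LysM+/+ arrays, and so was lowest on LysM+/cre array 3, which was also the lowest LysM+/cre array in ribosomal signal. The part of this in the ribosomal values was not tested. The medians of the 7 arrays were 5.16 to 5.22 on the log2 scale. Rictor itself had log2 signals of 7.72, 7.76, 8.25 and 7.80 on the LysM+/cre arrays, against 7.76, 7.74 and 7.80 on the LysM+/+ arrays, which does not separate the genotypes (log2 difference 0.12, SE 0.13, limma adjusted p = 0.749). Whether this probe set lies inside the deleted part of Rictor is unknown here, so the value is no check of the labels.

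The comparison sets macrophages of mice with myeloid cre against those without it, to see whether ribosomal protein mRNA differs with the genotype. Ribosomal protein signals tended upward in LysM+/cre macrophages by a small amount, but no single gene passed the test. Of the 67 genes, 57 had a higher mean on the LysM+/cre arrays and 10 a lower one (51.3% of all genes tested had a higher mean), with a median log2 difference of 0.10 (0.0044 over all genes). In 65 of the 67 genes the difference was less than 1.5-fold in either direction. In limma 0 genes passed an adjusted p of 0.05, as did 0 of all genes (0.0%), and the smallest adjusted p among the ribosomal genes was 0.371. At an unadjusted p under 0.05 there were 3 higher genes, or 4.48% (background 6.56%), and 1 lower gene (background 4.93%), and without variance moderation 0 ribosomal genes passed the adjustment as well. With all 7 arrays the share of higher calls was thus below that of all genes, but this order turned with the arrays used. Without LysM+/cre array 3 there were 9 higher genes (13.4%, against 6.40% of all genes in the same fit), and without LysM+/cre array 4 there were 5 (7.46% against 4.98%). Without LysM+/+ array 1 there were 6 (8.96% against 7.02%), and without LysM+/+ array 2 there were 7 (10.4% against 5.46%). In the other 3 such fits there were 2 higher genes each (2.99%), against 4.40% of all genes without LysM+/cre array 1, 5.24% without LysM+/cre array 2 and 4.55% without LysM+/+ array 3. The median difference was 0.06 without LysM+/+ array 3. On sorted samples such as these, fewer cells with a high level and less RNA per cell cannot be told apart.

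**Figure D1:**
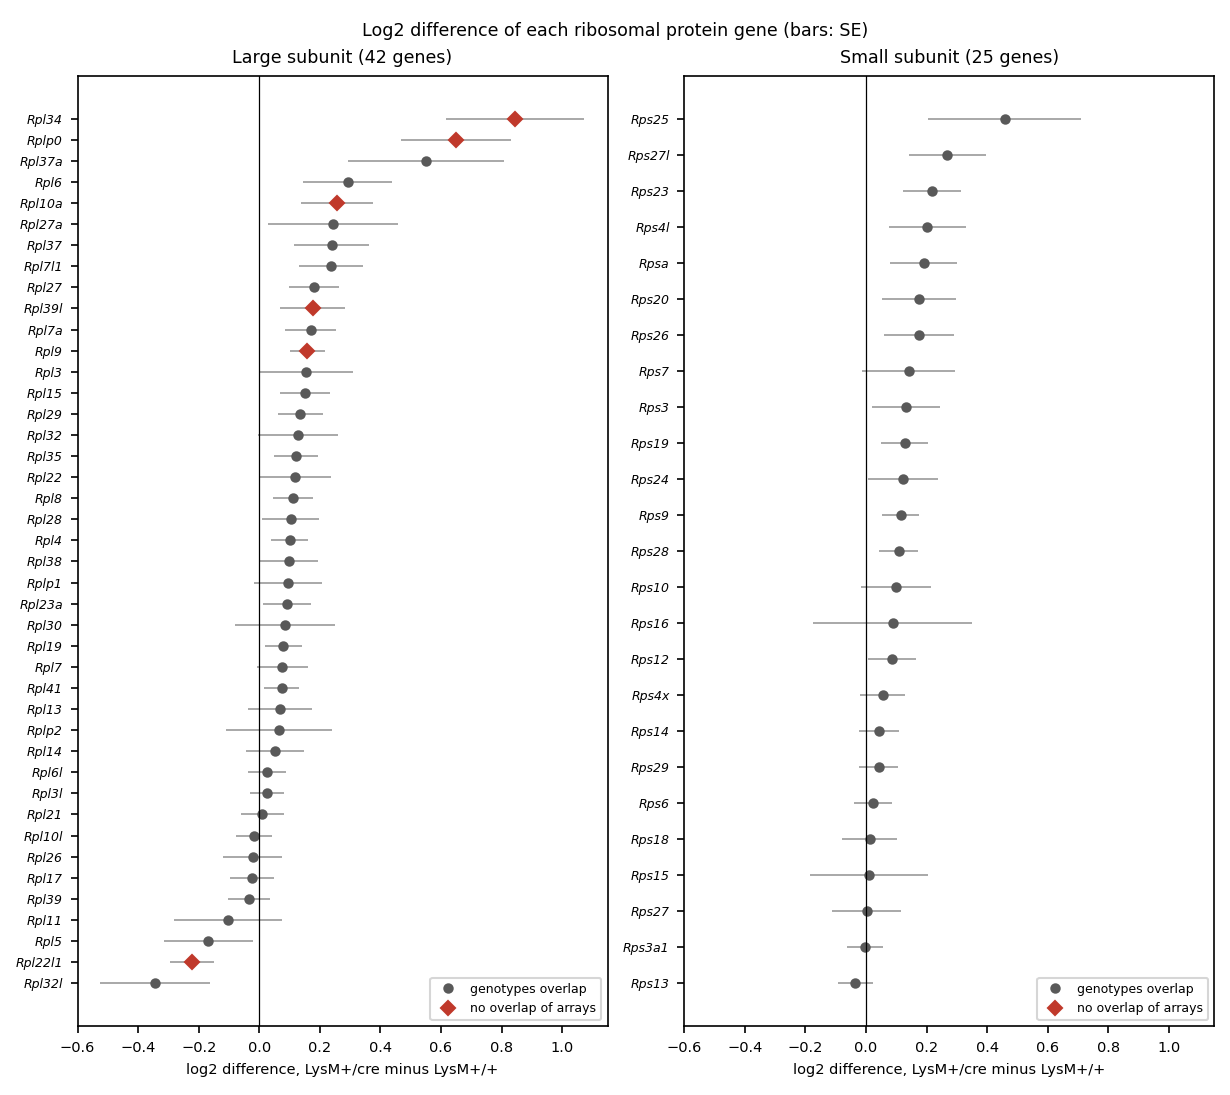
Log2 difference between LysM+/cre and LysM+/+ arrays for each gene of the large (left) and small (right) subunit, with bars for the SE of the limma fit (4 against 3 arrays). Diamonds mark the 6 genes whose arrays do not overlap between genotypes, 5 higher and 1 lower with cre, all in the large subunit.

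Large and small subunit genes had differences of similar size. The median was 0.10 for the 42 large subunit genes, of which 34 were higher and 8 lower, and 0.11 for the 25 small subunit genes, of which 23 were higher and 2 lower. The mean deviation of the large subunit genes from their 7-array means was 0.08, 0.14, -0.06 and 0.04 on LysM+/cre arrays 1 to 4, against -0.0061, 0.00093 and -0.20 on LysM+/+ arrays 1 to 3. That of the small subunit genes was 0.08, 0.13, -0.03 and 0.01 on the LysM+/cre arrays, against -0.03, -0.04 and -0.13 on the LysM+/+ arrays. Both subunits were thus highest on LysM+/cre array 2 and lowest on LysM+/+ array 3, and in both the genotypes overlapped through LysM+/cre array 3. Large minus small subunit averaged 0.0024 ± 0.022 (SD, n = 4) on the LysM+/cre arrays and -0.0032 ± 0.060 (SD, n = 3) on the LysM+/+ arrays, a difference of 0.0055 that is below the spread of either group.

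The deviations followed single arrays as much as genotype. LysM+/+ array 3 was the lowest of the 7 for 37 of the 67 genes, or 55.2% (19.0% of all genes tested), and LysM+/cre array 2 the highest for 35 genes, or 52.2% (12.0% of all genes tested). Small subunit genes had their highest value on LysM+/cre array 2 in 15 of 25 cases and large subunit genes in 20 of 42.

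**Figure D2:**
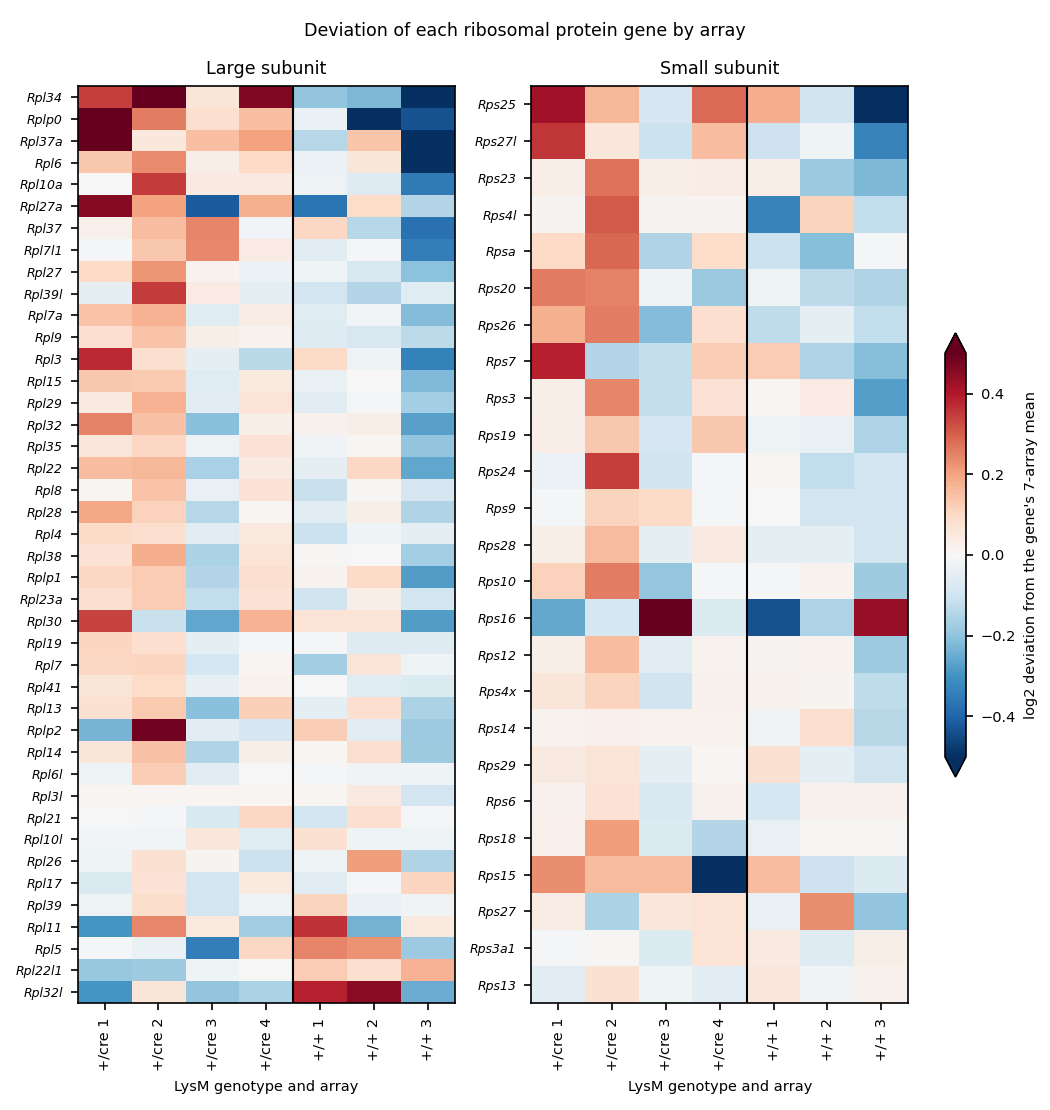
Deviation of each gene from its own mean over the 7 arrays, in log2 units, for the large (left) and small (right) subunit. Columns are the 4 LysM+/cre arrays and then the 3 LysM+/+ arrays, and genes run from the highest to the lowest difference. LysM+/+ array 3 is blue for most genes, and LysM+/cre array 2 is red for most small subunit genes.

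Among large subunit genes the smallest p belonged to Rpl34, a structural protein of that subunit. Its log2 signal was 7.48, 7.71, 7.20 and 7.60 on the LysM+/cre arrays, against 6.94, 6.91 and 6.11 on the LysM+/+ arrays. All LysM+/cre arrays lay above all LysM+/+ arrays, and LysM+/+ array 3 stood below the rest. The means were 7.50 ± 0.22 (SD, n = 4) in LysM+/cre and 6.65 ± 0.47 (SD, n = 3) in LysM+/+ macrophages, a 1.79-fold difference (log2 0.84, SE 0.23, limma adjusted p = 0.371).

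Rplp0 encodes the protein that anchors the stalk to which translation factors bind. It had log2 signals of 8.70, 8.34, 8.16 and 8.23 on the LysM+/cre arrays, against 8.05, 7.44 and 7.64 on the LysM+/+ arrays, with no overlap, a 1.57-fold difference (log2 0.65, SE 0.18, limma adjusted p = 0.385). Its other probe set was dimmer and differed by 0.18. The other stalk proteins did not show this size of difference: Rplp1 averaged 12.79 ± 0.13 (SD, n = 4) in LysM+/cre and 12.69 ± 0.20 (SD, n = 3) in LysM+/+ macrophages, and Rplp2 averaged 5.24 ± 0.31 in LysM+/cre and 5.17 ± 0.15 in LysM+/+ macrophages. Their log2 differences were 0.09 and 0.07, inside the spread of either group.

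Rpl9, which sits near the base of the stalk, had a small difference with a narrow spread. Its signals of 10.51, 10.57, 10.46 and 10.45 on the LysM+/cre arrays all exceeded the 10.37, 10.35 and 10.30 of the LysM+/+ arrays (log2 difference 0.16, SE 0.06, limma adjusted p = 0.415). A dimmer probe set of Rpl9 went the other way, by -0.15. Rpl10a and Rpl39l were the remaining large subunit genes with no overlap in the upward direction, which makes 5 of 67 (7.46%, background 5.23%). Rpl10a, a protein of the L1 stalk, had 8.65, 9.002, 8.69 and 8.70 on the LysM+/cre arrays, against 8.63, 8.59 and 8.30 on the LysM+/+ arrays (log2 difference 0.26, SE 0.12). Its genotypes were parted only by the narrow gap between the 2 arrays numbered 1. Rpl27 averaged 10.75 ± 0.11 (SD, n = 4) in LysM+/cre and 10.57 ± 0.094 (SD, n = 3) in LysM+/+ macrophages, with overlapping arrays.

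No small subunit gene had an unadjusted p under 0.05 and none separated the genotypes. Rps23, which helps to shape the decoding centre, came closest, with 6.40, 6.64, 6.40 and 6.40 on the LysM+/cre arrays against 6.40, 6.18 and 6.14 on the LysM+/+ arrays (log2 difference 0.22, SE 0.10, limma adjusted p = 0.448). LysM+/+ array 1 lay among the LysM+/cre arrays, and only LysM+/cre array 2 stood above it by a clear margin. Rps25, which is needed for initiation at some viral internal ribosome entry sites, had 8.42, 8.17, 7.92 and 8.29 in LysM+/cre against 8.19, 7.90 and 7.14 in LysM+/+ macrophages (log2 difference 0.46, SE 0.25). LysM+/+ array 3 was the lowest, and the difference was 0.16 without it. Rpsa, which is also known as a laminin receptor, had a log2 difference of 0.19 (SE 0.11), Rps9 of 0.11 (SE 0.06) and Rps28 of 0.11 (SE 0.06), each with overlapping arrays.

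Rps6 is the substrate of the S6 kinases and the usual readout of mTORC1 activity through its phosphorylation, which arrays do not measure. Its log2 signal was 12.83, 12.88, 12.73 and 12.82 on the LysM+/cre arrays, against 12.72, 12.83 and 12.83 on the LysM+/+ arrays. The genotypes overlapped throughout (log2 difference 0.02, SE 0.06, limma adjusted p = 0.902). Rps3, which also binds NF-kB p65, had a log2 difference of 0.13 (SE 0.11) and Rps19, mutated in human Diamond-Blackfan anaemia, of 0.13 (SE 0.08). Of the 14 measured genes linked to that anaemia in humans 11 were higher and 3 lower, with a median of 0.11 and 0 past an unadjusted p of 0.05.

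**Figure D3:**
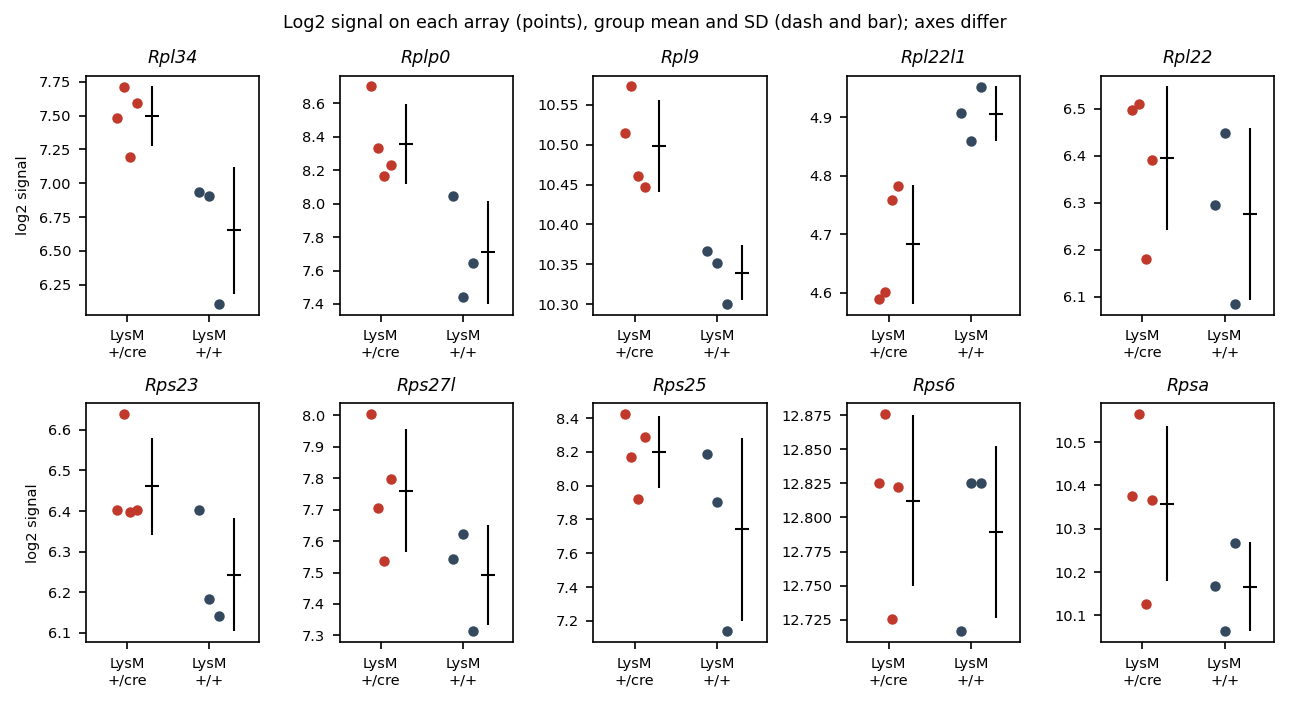
Log2 signal of 10 ribosomal protein genes on each LysM+/cre array (left in each panel) and LysM+/+ array (right), with the group mean and SD beside the points. Rpl34, Rplp0 and Rpl9 are higher and Rpl22l1 lower with cre without overlap, while Rps6 and Rpl22 overlap.

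By place on the ribosome, the 5S ribonucleoprotein differed in sign from most groups. Rpl5 and Rpl11, which carry 5S rRNA into the large subunit and bind MDM2 when ribosome assembly fails, were both lower on average. Rpl5 had 5.97, 5.95, 5.63 and 6.08 on the LysM+/cre arrays, against 6.23, 6.21 and 5.80 on the LysM+/+ arrays (log2 difference -0.17, SE 0.15). Rpl11 averaged 5.25 ± 0.24 (SD, n = 4) in LysM+/cre and 5.35 ± 0.30 (SD, n = 3) in LysM+/+ macrophages. Both genes overlapped between genotypes, and neither passed an unadjusted p of 0.05. Each rests on 1 probe set of low signal for a core ribosomal protein, with a mean of 5.98 for Rpl5 and 5.29 for Rpl11. The difference of Rpl11 turned to 0.048 in 1 of the fits with an array left out. The 8 measured genes of the exit tunnel and its rim had a median of 0.09, with 5 higher and 3 lower. The 5 genes of the mRNA entry and decoding region were all higher on average (median 0.11), and of 5 genes of the mRNA exit and platform 4 were higher (median 0.11). None of the genes of these 3 regions had an unadjusted p under 0.05.

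Rpl22l1 was the 1 ribosomal gene whose arrays separated in the downward direction (1.49% of the 67, background 3.56%). It is a close paralog of Rpl22 that can take its place in the ribosome, and Rpl22 protein is known to repress its expression in mice. Its log2 signal was 4.59, 4.60, 4.76 and 4.78 on the LysM+/cre arrays, against 4.91, 4.86 and 4.95 on the LysM+/+ arrays (log2 difference -0.22, SE 0.07, limma adjusted p = 0.401). The signal was dim, below the median of every array. Rpl22 had 6.50, 6.51, 6.18 and 6.39 in LysM+/cre against 6.30, 6.45 and 6.09 in LysM+/+ macrophages, a log2 difference of 0.12 (SE 0.12) with overlapping arrays. The direction of Rpl22l1 was the same in all 16 other settings in which it was tested, and it was left out where dim genes were filtered.

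The other paralog pairs did not separate together. Rpl39l, a paralog of Rpl39 best known from male germ cells, had 6.19, 6.58, 6.27 and 6.19 on the LysM+/cre arrays, against 6.14, 6.09 and 6.17 on the LysM+/+ arrays (log2 difference 0.18, SE 0.11). LysM+/cre array 2 stood above the other LysM+/cre arrays there. Rpl39 had a log2 difference of -0.03 (SE 0.07). Rps27l, a p53-induced paralog of Rps27, had 8.003, 7.70, 7.54 and 7.80 on the LysM+/cre arrays, against 7.54, 7.62 and 7.31 on the LysM+/+ arrays (log2 difference 0.27, SE 0.13), and Rps27 differed by 0.0018 (SE 0.11). Rpl7l1, which acts in ribosome assembly, differed by 0.24 (SE 0.10) and Rpl7 by 0.08 (SE 0.08). For Rps4l, annotated as a transcribed pseudogene in RefSeq, the difference was 0.20 (SE 0.13), and for the X-linked Rps4x it was 0.06 (SE 0.07). Rpl3 differed by 0.16 (SE 0.15), the muscle paralog Rpl3l by 0.02 (SE 0.06) and the germ cell paralog Rpl10l by -0.02 (SE 0.06). Each pair overlapped between genotypes except for Rpl22l1 and Rpl39l, and the difference between the members of a pair was not tested. The lowest differences elsewhere were Rpl32l at -0.34 (SE 0.18), the dimmest of the 67 probe sets, and in the small subunit Rps13 at -0.03 (SE 0.06) and Rps3a1 at -0.0038 (SE 0.06).

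Signal and probe set choice bear on these sizes. The means of the kept probe sets ran from 2.97 to 12.80, although the mRNAs of core ribosomal proteins are abundant in every cell, and 20 of the genes also appear on probe sets with several symbols, which were not used. For the 33 genes above the median ribosomal signal of 8.64 the differences lay between -0.03 and 0.26 with a median of 0.10, and 31 were higher. All genes tested above that signal, 2124 in number, had a median of 0.09 with 64.7% higher, and of the 33 ribosomal genes 3.03% were higher at an unadjusted p under 0.05, against 18.8% of those 2124. The 34 dimmer genes ran from -0.34 to 0.84. Bright genes at large thus had an upward median of nearly the same size. In the brightest class, above a log2 signal of 12, the 8 ribosomal genes had a median of 0.08 and all 75 genes one of 0.0049.

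**Figure D4:**
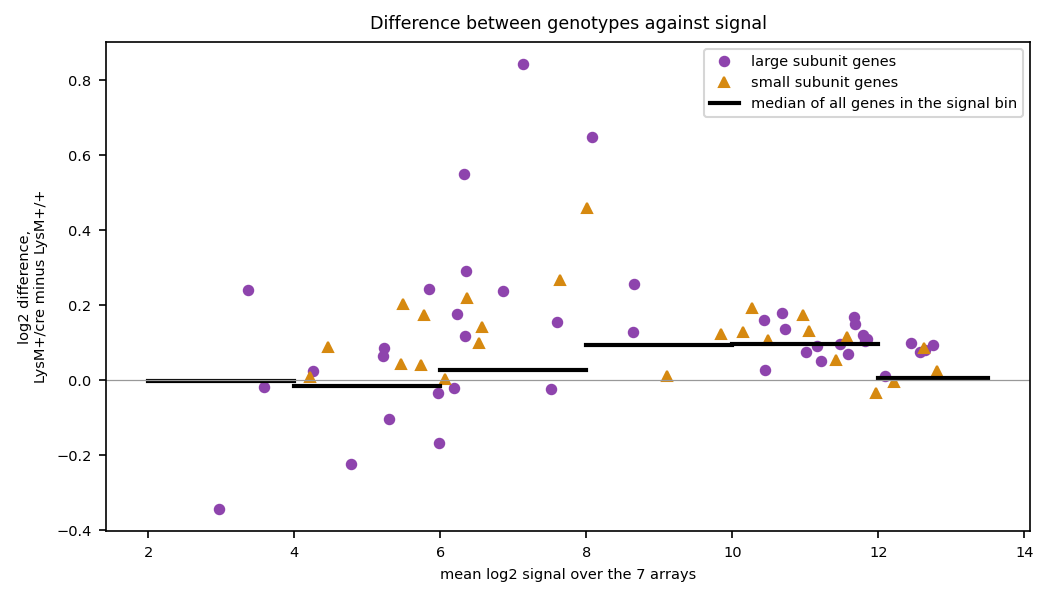
Log2 difference between LysM+/cre and LysM+/+ arrays against the mean log2 signal for the 42 large subunit genes (circles) and 25 small subunit genes (triangles). Black lines give the median of all genes tested in each class of signal, which is 0.09 between 8 and 10 and 0.10 between 10 and 12. The widest differences belong to probe sets with a signal below 10.

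Where a gene had several probe sets, they did not always agree in direction. Of the 25 such genes 11 had probe sets of both signs, namely Rpl3, Rpl7, Rpl7a, Rpl9, Rpl13, Rpl21, Rpl27, Rps18, Rps19, Rps24 and Rps28. The widest range was that of Rpl3, from -0.39 to 0.50, followed by Rps24, from -0.11 to 0.48. All 8 probe sets of Rps12 were higher, by 0.09 to 0.15, but 6 of them held identical values on every array and count as 1 measurement. Over the 34 distinct probe sets that were not kept, 22 were higher and the median difference was 0.09. Ribosomal protein genes have many processed pseudogenes of near-identical sequence, so signal from such copies cannot be told apart from that of the gene. In 22 of the 67 genes the same value, to 5 decimals, stood on more than 1 array, as for Rpl3l at 4.27 on all 4 LysM+/cre arrays and 1 LysM+/+ array.

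Several ribosomal protein genes carry small nucleolar RNAs (snoRNAs), guides of rRNA modification, in their introns. By RefSeq position 44 snoRNA genes lie within 22 of the genes, and 13 of them, in 12 hosts, had a probe set of their own. Of these 7 were higher and 6 lower, with a median difference of 0.04. Snord58b, within Rpl17, had 5.90, 6.19, 5.70 and 6.46 on the LysM+/cre arrays, against 6.50, 7.02 and 7.09 on the LysM+/+ arrays (log2 difference -0.81, SE 0.22, limma adjusted p = 0.374), with no overlap, while Rpl17 differed by -0.02. Snora69, within Rpl39, differed by 1.35 (SE 0.58), with 3.78 on LysM+/+ array 2 far below the others. Snord73a, within Rps3a1, differed by -0.55 (SE 0.24) and Snord72, within Rpl37, by -0.50 (SE 0.35). Snord58b was the 1 snoRNA of the 13 with an unadjusted p under 0.05, which 11.5% of all genes tested had in either direction. Of all genes tested, 4.93% were lower at that threshold and 3.56% were lower without overlap.

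Genes around the ribosome were read from lists chosen for this comparison. Among ribosomal proteins outside the symbol pattern, Fau was measured, with a log2 difference of 0.17 (SE 0.08). Of 14 translation factors with TOP mRNAs 12 were higher (51.3% of all genes tested were), with a median of 0.08. Eif3h, an initiation factor subunit, differed by 0.18 (SE 0.07). It was the 1 factor with an unadjusted p under 0.05 (7.14%, against 6.56% of all genes higher). It was also the 1 without overlap (7.14%, against 5.23% of all genes higher), so both shares were near the background. Eef1g and Eef1b2, elongation factor subunits, differed by 0.26 (SE 0.12) and 0.10 (SE 0.06). Of 28 ribosome biogenesis genes 17 were higher and 11 lower (median 0.11). At an unadjusted p under 0.05 there were 5 higher genes (17.9%, background 6.56%, or 10.1% in the fit without dim genes) and 1 lower gene (background 4.93%). The lower one, the snoRNP protein gene Nop58, named after its value was seen, had the largest difference of the list in size, at -0.69 (SE 0.28), with overlapping arrays. Eif6, which keeps the large subunit from joining too early, had 9.94, 9.86, 10.01 and 9.97 on the LysM+/cre arrays, against 9.66, 9.32 and 9.38 on the LysM+/+ arrays (log2 difference 0.49, SE 0.09, limma adjusted p = 0.328). All 4 LysM+/cre arrays stood above the LysM+/+ arrays. The assembly factor Bop1 differed by 0.52 (SE 0.13) and the pseudouridine synthase Dkc1 by 0.62 (SE 0.16), both without overlap. Of 9 measured kinases and regulators 4 were higher and 5 lower. Eif4ebp1, the repressor of cap-dependent translation, differed by 0.61 (SE 0.18), with 8.16, 7.98, 8.05 and 7.82 in LysM+/cre against 7.83, 7.16 and 7.16 in LysM+/+ macrophages. Eef2k, which slows elongation, differed by -0.29 (SE 0.13) and Larp1 by 0.15 (SE 0.07).

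Mitochondrial ribosomal proteins, which are encoded in the nucleus, build a separate ribosome. The cytosolic set had 57 of 67 genes higher, a median of 0.10 and 4.48% higher at an unadjusted p under 0.05. Of the 71 mitochondrial genes 69 were higher, with a median of 0.21. At an unadjusted p under 0.05, 16 were higher, or 22.5% (background 6.56%, or 10.1% in the fit without dim genes). Mrpl20 differed by 0.56 (SE 0.11), Mrpl54 by 0.48 (SE 0.10) and Mrps25 by 0.46 (SE 0.12), each with no overlap. No gene of the 71 passed the adjustment in limma, the smallest adjusted p being 0.328. Whether the 2 sets differ was not tested. The mean deviation of the mitochondrial set was 0.15, 0.17, 0.03 and 0.04 on the LysM+/cre arrays, against -0.05, -0.11 and -0.23 on the LysM+/+ arrays, so that all LysM+/cre arrays lay above the LysM+/+ arrays.

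Markers of other cells varied between arrays beside the ribosomal signal. The epithelial score (12 genes, 1 higher and 11 lower with cre) ran from -0.59 to 0.42 on the LysM+/cre arrays and from -0.72 to 0.76 on the LysM+/+ arrays. Its top value stood on LysM+/+ array 3, the array with the lowest ribosomal signal, and its value on LysM+/cre array 2, the array with the highest ribosomal signal, was 0.42. Car4 and Slc26a3, genes of absorptive colonocytes, differed by -0.94 (SE 0.33) and -1.07 (SE 0.41). The neutrophil score (10 genes, all higher on average with cre) ran from -0.42 to 1.64 on the LysM+/cre arrays and from -1.30 to 0.53 on the LysM+/+ arrays, and LysM+/cre array 3, the lowest LysM+/cre array in ribosomal signal, had the 1.64. The gelatinase gene Mmp9 differed by 1.35 (SE 0.45). The fibroblast and smooth muscle score (10 genes, 2 higher and 8 lower) ran from -0.38 to 0.12 on the LysM+/cre arrays and from 0.12 to 0.45 on the LysM+/+ arrays. Dcn had the largest difference of that list, at -1.38 (SE 0.27). The collagen genes, named after their values were seen, were nearly level: the 2 higher ones, Col3a1 and Col1a1, differed by 0.17 (SE 0.18) and 0.04 (SE 0.15), and Col1a2 by -0.03 (SE 0.15). All 4 measured monocyte genes were higher, although the sort left out Ly6C+ cells. Their score ran from 0.16 to 1.18 on the LysM+/cre arrays and from -1.17 to -0.43 on the LysM+/+ arrays, without overlap. Each of the 4 genes overlapped between genotypes on its own. On LysM+/cre array 3 Chil3 was at its highest, 9.56. There Ccr2 (6.82) and Plac8 (8.36) were at their lowest for LysM+/cre, and Ly6c2 was 7.87. A score without Chil3 was not worked out. Of 9 markers of dividing cells 7 were higher, with Rrm2, a ribonucleotide reductase subunit, at 0.52 (SE 0.16). The 2 lower ones, named after their values were seen, were the proliferation marker Mki67 at -0.45 (SE 0.35) and the replication clamp gene Pcna at -0.20 (SE 0.09). Of 8 endothelial genes 7 were lower, but the largest difference was that of the exception, Pecam1, at 0.91 (SE 0.45), and the score differed by -0.16. Of 5 B and plasma cell genes 4 were higher, but Jchain differed by -0.89 (SE 0.55), and the score differed by 0.02. Of 7 T and NK cell genes 5 were lower, and the score differed by -0.05. With a score of the 52 markers of fibroblasts, endothelium, epithelium, neutrophils, T and NK cells and B and plasma cells in the fit, which leaves out the monocyte genes, the median ribosomal difference was 0.09. That score pools lists of opposite direction, such as neutrophils (0.63) against fibroblasts and smooth muscle (-0.45) and epithelium (-0.34). It differed by only -0.07 between genotypes, so this fit cannot tell how much other cells contribute. The part of each single marker list in the ribosomal values was not tested.

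**Figure D5:**
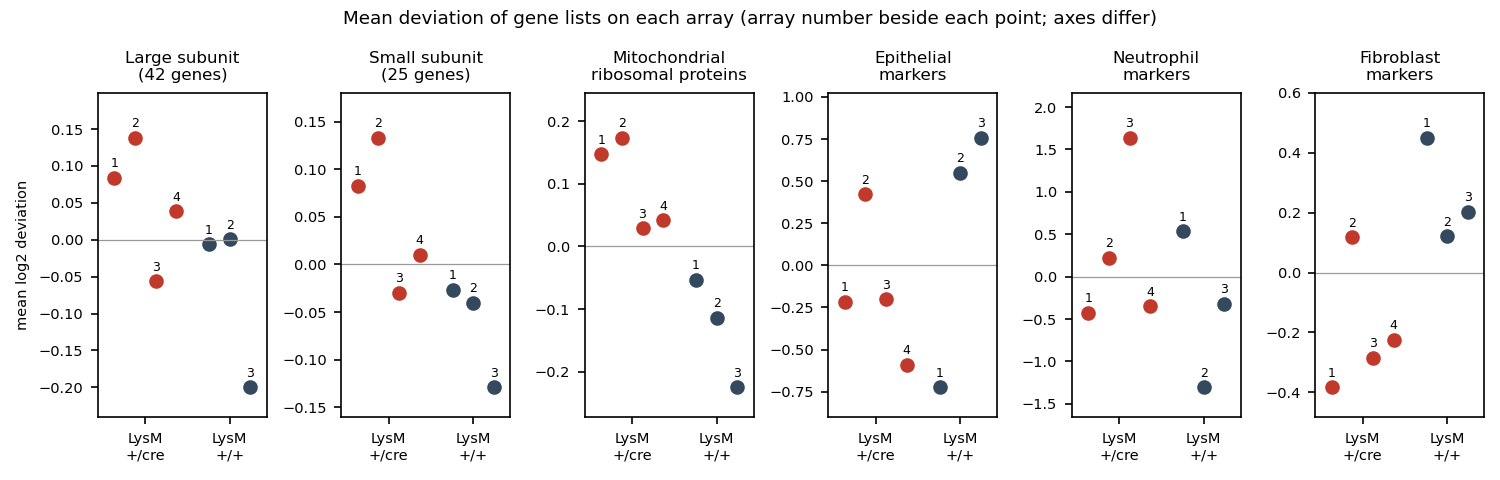
Mean log2 deviation of 6 gene lists on each LysM+/cre array (left in each panel) and LysM+/+ array (right), with array numbers beside the points. LysM+/+ array 3 is lowest for the large and small subunit and for mitochondrial ribosomal proteins and highest for epithelial markers, and LysM+/cre array 3 is highest for neutrophil markers.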

How the data were processed

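The authors deposited 1 log2 intensity for each probe set and array. The series' design text names Affymetrix Expression Console, and the submitters' processing notes name Transcriptome Analysis Console too. No source used here gives their versions or the summarisation method. Quantiles were nearly equal on the 7 arrays, so a change common to every gene could not be seen. Precision is limited by having 7 arrays.

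Of 41345 probe sets 23521 had exactly 1 symbol, 1814 had several and 16010 had none listed. The brightest probe set per gene left 22180 genes, and no dim genes were removed. All 67 symbols matched RefSeq (GRCm38.p6) by Entrez identifier. Another 13 ribosomal protein symbols occur on multi-symbol probe sets alone, Rpl13a among them, and were not analysed here. The LysM+/cre minus LysM+/+ difference of every gene was fitted by lmFit and eBayes (limma 3.58.1, R 4.3.3) without covariates, and two-sided p-values were adjusted by Benjamini-Hochberg across the 22180 genes, at 0.05. The fit was tested on simulated data. Named genes were those of fixed roles and paralog pairs, per subunit the 6 of smallest p and the 3 of lowest difference, the 2 largest differences per direction, genes with probe sets of both signs, and up to 3 per further list and 4 snoRNAs. The genes and lists were chosen with earlier results of these data known. Alternatives were other scalings, variance models, probe set rules, weights, a covariate, a replicate block, and fits with arrays left out. Figures were drawn with matplotlib 3.10.9.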

Additional observations from a re-analysis of the deposited data

Results flagged for a closer look

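On the 4 LysM+/cre arrays, 6 of the 38 named ribosomal genes had 1 array apart from the other 3 by Dixon's criterion. Its nominal rate of about 1 in 20 holds for independent groups, and these genes share their arrays and were partly chosen by their values. The share of all genes tested that meets the criterion was not worked out, so the count has no background. LysM+/cre array 2 stood high for Rpl10a at 9.002, for Rps23 at 6.64 and for Rps4l at 5.80, and low for Rps27 at 5.90. LysM+/cre array 3 stood low for Rpl13 at 11.38 and for Rplp1 at 12.60. The other 3 LysM+/cre arrays held one and the same value for Rps4l, 5.50.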

How the results depend on the processing

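No ribosomal protein gene passed an adjusted p of 0.05 in any of the settings tried. The count of higher genes at an unadjusted p under 0.05, 3 as reported (4.48%, against 6.56% of all genes), was 5 with array medians set equal (7.46% against 8.05%, with the median of all genes at 0.03), 2 with dim genes left out (3.64% against 10.1%) and 2 with a trend and robust variance model (2.99% against 5.87%). It was 4 (5.97%) with the mean of probe sets (against 6.54%), with the outside cell score as covariate (6.20%), with the replicate block (5.58%) and with both arrays numbered 3 left out (4.68%; chosen after seeing the data), so the share passed that of all genes in the last 2 of these. The count of lower genes, 1 as reported (against 4.93% of all genes), was 2 with both arrays numbered 3 left out, 2 with the replicate block and 0 with dim genes left out. The share of all genes called lower is not given here for any other setting, so the counts of lower genes are not read further. Same-numbered arrays had correlations of deviations of -0.12, 0.12 and 0.10, and arrays of different number had -0.31 to 0.24. With so few arrays these values cannot tell whether the numbers pair the samples. Leaving out each array in turn gave 2 to 9 higher genes (2.99% to 13.4%, against 4.40% to 7.02% of all genes, and above that share in 4 of the 7 fits) and 1 lower gene. The medians were 0.06 to 0.15 for all ribosomal protein genes together, 0.06 to 0.15 for the large and 0.07 to 0.14 for the small subunit. Large minus small subunit lay between -0.03 and 0.03.

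Of 38 named genes 27 kept their sign in all settings, and the other 11 had small differences. Rpl10l was 0.0062 with array medians set equal and 0.00035 with the replicate block, and Rps3a1 was 0.020 with medians set equal, 0.000012 with array weights and 0.031 without both arrays 3. Without both arrays 3 Rpl3l was -0.017 and Rps27 was -0.11, and Rps27 was -0.031 with the covariate and -0.021 with the block. Rpl21 was -0.00038 with the mean of probe sets, -0.0051 with the covariate, -0.0053 with quantile normalization and -0.023 with the block, and Rps18 was -0.044 with quantile normalization. With single arrays left out the ranges were -0.040 to 0.016 for Rpl10l, -0.25 to 0.048 for Rpl11, -0.034 to 0.056 for Rpl21, -0.068 to 0.011 for Rpl39, -0.017 to 0.054 for Rpl3l, -0.017 to 0.17 for Rplp1, -0.086 to 0.15 for Rplp2, -0.055 to 0.062 for Rps18, -0.096 to 0.12 for Rps27, -0.038 to 0.018 for Rps3a1 and -0.013 to 0.052 for Rps6. The causes were not tested. Dim probe sets and 7 arrays limit the precision.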
